A study of Homo sapiens with 24 samples.

Results

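MLT2 and ERVL elements are old endogenous retroviruses of class III, descended from ancient infections of the germ line. The rows of the deposited repeat table whose names begin with MLT2, ERVL or HERVL were taken as members. They numbered 21 of the 992 repeat names in the table: 12 MLT2 rows, which are long terminal repeats (LTRs), and 9 internal rows, which hold the remains of the viral genes. The rule used names only and no measured value, though it was set with earlier results of these data known. All 21 members passed the filter on low counts, as did 929 of all 992 names.

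A provirus of this kind starts and ends with an LTR, which carries its promoter, and many copies in the genome are now lone LTRs left behind by recombination. MLT2A1 and MLT2A2 are the LTRs that flank HERVL, whose internal region is counted as HERVL-int, and this pair is best known for its transcription in the cleavage-stage embryo, where the transcription factor DUX4 drives it. Methylation of lysine 9 on histone H3 (H3K9), written by G9a, GLP, SUV39H1, SUV39H2 and SETDB1, is among the marks that keep such elements silent in other cells. No sequence of a member is printed here, because the tables give names, counts and lengths alone.

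The cells were U937, an established human myelomonocytic line, and the study concerned disruption of the complex of SUV39H1, G9a and GLP. The 8 groups held 3 libraries each. Mock cells with DMSO, and cells with UNC0638 at 2 µM or 4 µM for 3 days, formed the inhibitor arm, in which UNC0638 blocks the catalytic site of G9a and GLP. Cells with a scrambled hairpin, with G9a hairpin 2 or 3, or with SUV39H1 hairpin 2 or 4 formed the knockdown arm, in which the G9a and SUV39H1 hairpins came by lentivirus and were followed by 3 days of puromycin. The labels do not state the time of the DMSO cells or the selection of the scrambled cells, and they do not say whether replicates came from separate cultures, so the p-values measure the spread between these libraries, which may be technical. All groups share 1 cell line, so nothing here extends to other cells.

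Libraries held 31545854 to 53803704 gene counts and 1837411 to 4163513 repeat counts. The targeted genes fell as labelled: EHMT2, which encodes G9a, fell by 0.96 and 0.97 on the log2 scale with G9a hairpins 2 and 3, and SUV39H1 fell by 1.64 and 1.46 with its hairpins 2 and 4. EHMT2 also fell by 0.41 with SUV39H1 hairpin 2 and by 0.16 with hairpin 4, and SUV39H2 fell by 1.23 and 0.62 with these hairpins (edgeR quasi-likelihood test, adjusted p at most 0.0295 for each). Of 10 myelomonocytic markers 9 averaged at least 1 CPM (the count for each 1000000 gene counts), while T cell, erythroid and epithelial markers summed to at most 0.0688 CPM in any library and 4 fibroblast markers to at most 0.819 CPM. Of the 3 B cell markers given here, 2 averaged at least 1 CPM (CD79A and PAX5), MS4A1 was near 0, and the sum of the 3 ran from 23.0 to 57.6 CPM. Whether these markers have a part in the results was not tested.

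Levels are given on 2 scales. On the first, counts were divided by the gene-table library size with its trimmed-mean (TMM) factor, which gives CPM and keeps a shift of all repeats visible. On the second, counts were divided by the library's own repeat total, which gives repeat-scaled CPM, the count for each 1000000 repeat counts, and shows a member against the other repeats. The scales part in the knockdown arm, because repeats rose against the gene counts there. As raw totals, without TMM factors, repeats made up 5.76 ± 0.115 for every 100 gene counts in scrambled cells (SD, n = 3). They made up 6.96 ± 0.0697 and 6.79 ± 0.343 with G9a hairpins 2 and 3, and 7.40 ± 0.213 and 7.79 ± 0.0485 with SUV39H1 hairpins 2 and 4. In bulk RNA a change in the cells that transcribe a repeat and a change in RNA per cell cannot be told apart. In the inhibitor arm, also without TMM factors, repeats made up 5.94 ± 0.166 with DMSO, 5.58 ± 0.0418 at 2 µM and 5.67 ± 0.263 at 4 µM.

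The members were a small and weakly transcribed share of the repeats. Together they held 0.540% to 0.603% of the repeat counts of a library, with a median of 0.562%, or 10402 to 23074 counts. Per megabase of annotated sequence their median level was 16.2 CPM, against 27.6 CPM over all 992 names. MLT2F, an LTR of the MLT2 group, stood highest among members at 60.8 CPM per megabase, the 76.0 percentile of all names, and HERVL74-int followed at 43.2. HERVL18-int, MLT2B5 and HERVL32-int stood lowest, at 6.24, 6.45 and 6.54 CPM per megabase. HERVL-int reached 11.4 CPM per megabase, while its LTRs MLT2A1 and MLT2A2 reached 14.2 and 16.2. A table summed by name cannot tell a transcript that starts in an LTR from a host gene's transcript that runs through it.

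**Figure D1:**
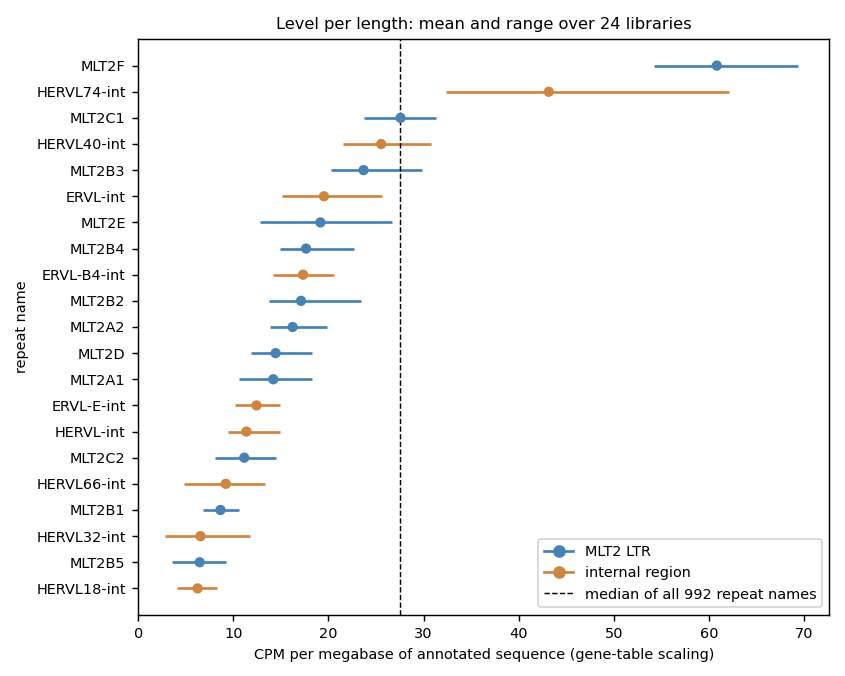
Level of each member per length of annotated sequence, in CPM per megabase with gene-table scaling. Points are means and lines the range over 24 libraries, blue for MLT2 LTRs and orange for internal regions, and the dashed line is the median of all 992 repeat names, 27.6. MLT2F and HERVL74-int lie to the right of that line over all libraries, and most members lie to its left.

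Over the 8 groups, all 21 members differed somewhere with gene-table scaling (F-test of edgeR with 7 degrees of freedom, adjusted p from 1.03e-12 for HERVL-int to 0.00373 for HERVL18-int), as did 92.8% of all repeats tested. Each member had its highest group mean in a G9a or SUV39H1 hairpin group: 11 in SUV39H1 hairpin 2, 6 in SUV39H1 hairpin 4 and 2 in each G9a hairpin. Of the lowest means, 15 lay in an UNC0638 group, 4 in DMSO and 2 in scrambled cells. These places were not counted over all repeats, of which 60.3% to 74.7% rose with each G9a or SUV39H1 hairpin on this scale. The highest group mean exceeded the lowest by 1.22-fold for MLT2F and by 2.30-fold for HERVL32-int, the ends of the range. Scaled by repeat totals, 13 of 21 members differed over the groups, against 74.7% of all repeats. The 8 that did not pass were MLT2A2, MLT2B1, MLT2B5, MLT2C1, MLT2E, HERVL32-int, HERVL40-int and HERVL66-int.

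The summed levels showed a step within the knockdown arm, between scrambled cells and the G9a and SUV39H1 hairpins. The 12 MLT2 rows summed to 174 ± 6.63 CPM in scrambled cells (SD, n = 3), 205 ± 4.58 and 202 ± 4.30 with G9a hairpins 2 and 3, and 216 ± 9.19 and 215 ± 5.81 with SUV39H1 hairpins 2 and 4. The 9 internal rows summed to 155 ± 3.53 CPM in scrambled cells, 191 ± 5.98 and 188 ± 6.92 with the G9a hairpins, and 206 ± 8.08 and 199.6 ± 6.10 with the SUV39H1 hairpins. As a share of scrambled cells, in the same order, the MLT2 sum was 118.1%, 116.3%, 124.2% and 123.4%, and the internal sum 123.4%, 121.5%, 133.1% and 129.0%. No library of these hairpins overlapped a scrambled library in either sum. On the same scale, TMM factors included, all repeats together reached 59287.5 ± 1009 CPM in scrambled cells. They reached 70625.5 ± 687 and 69395.3 ± 2816 CPM with the G9a hairpins, and 71511.4 ± 2423 and 73270.2 ± 423 CPM with the SUV39H1 hairpins. Whether the sums of members moved otherwise than all repeats was not tested. With DMSO, 2 µM and 4 µM the MLT2 sum was 176 ± 2.67, 171 ± 4.44 and 172 ± 1.68 CPM, and the internal sum 156 ± 1.67, 147 ± 2.96 and 149.6 ± 4.84 CPM.

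Against the other repeats the steps were small. The MLT2 sum was 2934 ± 82.6 repeat-scaled CPM in scrambled cells and 2909 ± 56.9, 2919 ± 66.5, 3021 ± 37.8 and 2930 ± 65.9 with G9a hairpins 2 and 3 and SUV39H1 hairpins 2 and 4. The internal sum was 2609 ± 15.8 in scrambled cells and 2703 ± 60.0, 2708 ± 24.8, 2880 ± 111 and 2724 ± 68.0 in the same order. The internal rows of all 12 knockdown libraries thus lay above those of the 3 scrambled libraries on this scale too, while the MLT2 rows overlapped. In the inhibitor arm the internal sum was 2614 ± 66.7 with DMSO, 2622 ± 32.9 at 2 µM and 2603 ± 64.7 at 4 µM. DMSO replicate 2, at 2666, lay above G9a hairpin 2 replicate 1, at 2641.

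**Figure D2:**
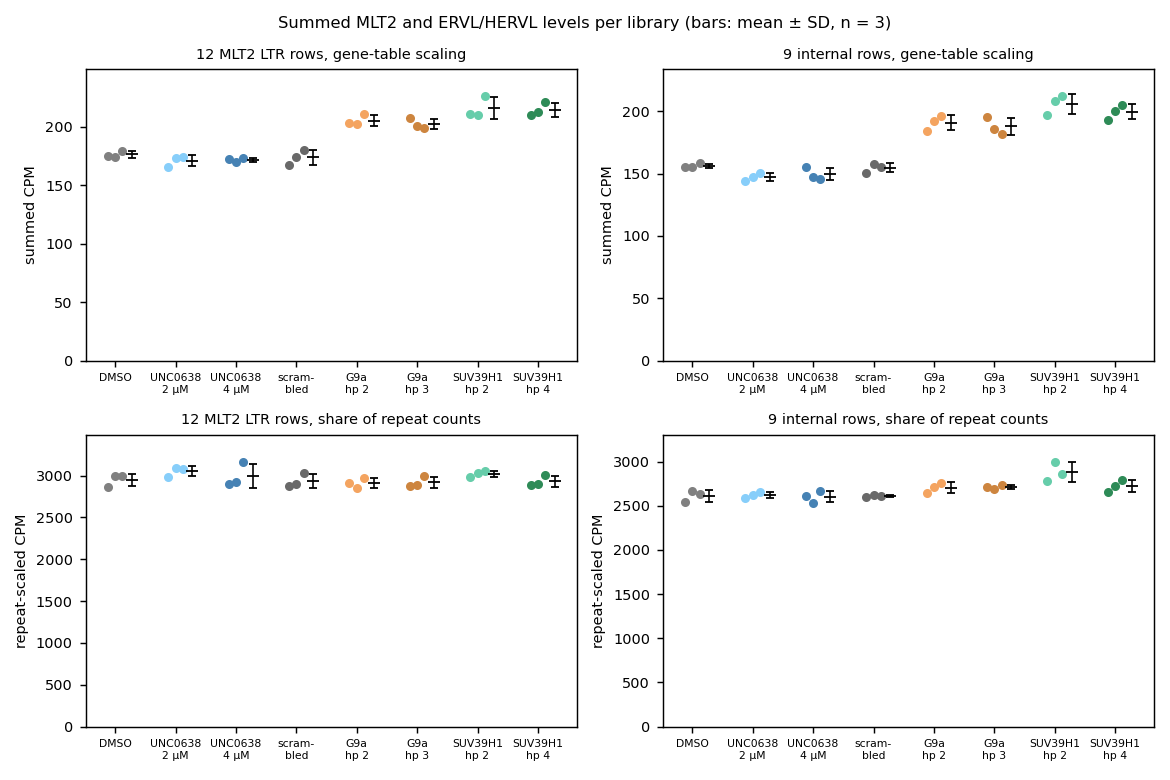
Summed level of the 12 MLT2 rows (left) and the 9 internal rows (right) in each library of the 8 groups, in CPM with gene-table scaling (top) and in repeat-scaled CPM (bottom). Points are libraries and bars the mean ± SD of 3. In the top row the hairpin groups against G9a and SUV39H1 (hp) lie above scrambled cells, and in the bottom row the MLT2 sums of these groups overlap.

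The first comparison asked what inhibition of G9a and GLP did. With gene-table scaling 1 member was lower at 2 µM and 0 were higher, and 4.84% of all repeats passed the test, 4.09% as lower and 0.753% as higher. At 4 µM 1 member was lower and 1 higher, against 6.78% of all repeats, 4.2% as lower and 2.58% as higher. The member that passed at both doses was ERVL-B4-int, the internal region with the second largest number of counts, and the one that was higher was HERVL18-int, among the weakest. The median log2 difference of the members was -0.07 at 2 µM and -0.05 at 4 µM, beside -0.09 and -0.06 over all repeats.

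ERVL-B4-int stood at 41.2, 43.6 and 42.8 CPM in the DMSO libraries, at 37.3, 38.1 and 38.3 CPM at 2 µM, and at 39.1, 37.0 and 38.2 CPM at 4 µM. All 6 libraries with the inhibitor lay below all 3 with DMSO. It fell by 0.16 ± 0.04 (SE) on the log2 scale at each dose (edgeR, adjusted p = 0.0267 and 0.0253). With repeat totals the differences were -0.07 (adjusted p = 0.417) and -0.10 (adjusted p = 0.153), and neither passed. At 2 µM the call was also lost when any 1 of 5 libraries was left out, all but DMSO replicate 1, and at 4 µM without DMSO replicate 2 or 3 or 4 µM replicate 2 or 3.

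HERVL18-int stood at 1.65, 2.25 and 2.58 CPM with DMSO, at 2.25, 2.60 and 2.70 at 2 µM, and at 2.93, 2.66 and 3.37 at 4 µM. The 4 µM libraries lay above those with DMSO, whose replicate 1 was lowest. It rose 1.39-fold at 4 µM, by 0.47 ± 0.14 on the log2 scale (adjusted p = 0.0377), and with repeat totals by 0.54 ± 0.14 (adjusted p = 0.0115). Without DMSO replicate 1 the difference was 0.30 (adjusted p = 0.238), and the call was also lost without DMSO replicate 2 or 4 µM replicate 3. With repeat totals it was lost without DMSO replicate 1 or 4 µM replicate 3. Fitted on the 6 compared libraries alone, neither member passed at 4 µM (adjusted p = 0.0906 for HERVL18-int and 0.22 for ERVL-B4-int), and ERVL-B4-int did not pass at 2 µM (adjusted p = 0.0572).

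The doses themselves did not differ in any member: 0 of 21 passed with either scaling, 0 members had an unadjusted p under 0.05, 0 passed with DESeq2, and 0.323% of all repeats passed. With repeat totals 0 members passed at 2 µM, against 2.8% of all repeats (2.15% higher, 0.646% lower), and 2 were higher and 0 lower at 4 µM, against 10.2% (7.21% higher, 3.01% lower). They were HERVL18-int and MLT2B2. MLT2B2 was higher at 4 µM than with DMSO, by 0.25 ± 0.07 (adjusted p = 0.0204), and with gene-table scaling its difference was 0.19 and did not pass (adjusted p = 0.117).

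Knockdown of G9a raised most members on the gene-table scale. With hairpin 2, 17 of 21 rose and 0 fell, while 66.1% of all repeats rose, 3.23% fell and 69.3% changed. With hairpin 3, 15 rose and 0 fell, while 60.3% of all repeats rose, 3.55% fell and 63.8% changed. The libraries lay wholly above the scrambled ones in 20 members with hairpin 2 and 17 with hairpin 3, as in 69.2% and 63.2% of all repeats. The members' median log2 difference was 0.25 with each hairpin, beside 0.29 and 0.26 over all repeats. These medians lie close to those of the whole table. The shares lay higher in the members, of which 81% and 71.4% were called with hairpins 2 and 3, against 69.3% and 63.8% of all repeats. Whether the shares differ was not tested. The 4 members that did not pass with hairpin 2 were MLT2B1, MLT2C2, MLT2E and HERVL18-int. With hairpin 3 the 6 were MLT2B2, MLT2C2, HERVL18-int, HERVL32-int, HERVL40-int and HERVL66-int. No member was called between hairpins 3 and 2 (0 of 21, with 0% of all 929 repeats called, 1 member at an unadjusted p under 0.05, and 0 members with DESeq2).

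Against the other repeats, 3 members rose and 1 fell with each G9a hairpin, while 35.3% of all repeats changed with hairpin 2 (18.7% higher, 16.6% lower) and 32.7% with hairpin 3 (16.7% higher, 16% lower). Dividing by repeat totals took the median of all repeats from 0.29 to 0.04 with hairpin 2 and from 0.26 to 0.03 with hairpin 3. ERVL-int and MLT2A1 rose with both hairpins on both scales. ERVL-E-int did so with hairpin 2 and HERVL-int with hairpin 3.

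ERVL-int is an internal region of the ERVL group. It stood at 7.84, 7.29 and 7.46 CPM in the scrambled libraries, at 10.6, 10.3 and 11.3 with G9a hairpin 2, and at 11.7, 10.3 and 10.4 with hairpin 3. All 6 G9a libraries lay above all scrambled ones, by a margin wider than the spread of either group. It rose 1.43-fold and 1.44-fold, by 0.51 ± 0.08 and 0.52 ± 0.08 on the log2 scale (edgeR, adjusted p = 3.8e-06 and 3.99e-06). In repeat-scaled CPM it stood at 135, 121 and 125 in scrambled cells, at 152, 145 and 158 with hairpin 2 and at 162, 148 and 157 with hairpin 3. The groups did not overlap there either, and the rises were 0.26 ± 0.08 (adjusted p = 0.00938) and 0.30 ± 0.08 (adjusted p = 0.00402). Without scrambled replicate 2 the first of these was lost (adjusted p = 0.0566).

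MLT2A1 was the only member that rose with all 4 hairpins on both scales, as 83 of all 929 repeats did (8.93%). It stood at 11.1, 12.9 and 13.2 CPM in scrambled cells, at 16.4, 17.0 and 17.1 with G9a hairpin 2 and at 18.3, 15.4 and 15.6 with hairpin 3. With SUV39H1 hairpin 2 it stood at 17.3, 19.0 and 19.3 CPM and with hairpin 4 at 16.7, 17.8 and 18.5. Every knockdown library exceeded every scrambled library, of which replicate 1 was lowest. The rises were 1.35-fold and 1.32-fold with the G9a hairpins and 1.49-fold and 1.42-fold with the SUV39H1 hairpins (log2 0.43, 0.40, 0.57 and 0.51, each with an SE of 0.07, adjusted p at most 2.57e-05).

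In repeat-scaled CPM MLT2A1 stood at 191, 214 and 222 in scrambled cells, at 234, 240 and 240 with G9a hairpin 2, at 253, 223 and 234 with hairpin 3, at 244, 274 and 260 with SUV39H1 hairpin 2 and at 229, 243 and 252 with hairpin 4. The groups again did not overlap, but G9a hairpin 3 replicate 2 lay barely above scrambled replicate 3. On this scale the rises were 0.18, 0.18, 0.30 and 0.20, each ± 0.06 (adjusted p = 0.0287, 0.0378, 0.000271 and 0.0113). The call with SUV39H1 hairpin 2 held whichever library was left out. Without scrambled replicate 1 the rises with G9a hairpins 2 and 3 and SUV39H1 hairpin 4 were 0.13, 0.12 and 0.15 and did not pass (adjusted p = 0.164, 0.195 and 0.089). They were also lost without G9a hairpin 2 replicate 2 or 3, without scrambled replicate 2 or G9a hairpin 3 replicate 1 or 3, and without SUV39H1 hairpin 4 replicate 3, respectively. With TMM factors of the repeat table added, the G9a rises did not pass either (adjusted p = 0.0504 and 0.055).

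HERVL-int, the internal region between these LTRs, stood at 36.3, 37.8 and 36.1 CPM in scrambled cells, at 43.8, 47.0 and 47.3 with G9a hairpin 2, at 47.7, 46.7 and 45.3 with hairpin 3, at 50.1, 54.0 and 56.5 with SUV39H1 hairpin 2 and at 46.6, 50.5 and 53.1 with hairpin 4. No knockdown library overlapped the scrambled ones. HERVL-int rose by 0.33, 0.34, 0.54 and 0.45 on the log2 scale, each ± 0.05 (adjusted p at most 2.51e-06). With repeat totals it rose by 0.12 ± 0.04 with G9a hairpin 3 (adjusted p = 0.0351), by 0.27 ± 0.04 with SUV39H1 hairpin 2 (adjusted p = 4.06e-06) and by 0.14 ± 0.04 with hairpin 4 (adjusted p = 0.00743). The hairpin 2 rise held whichever library was left out. The hairpin 4 rise was lost without SUV39H1 hairpin 4 replicate 3 (adjusted p = 0.0665), and the G9a hairpin 3 rise was lost without any 1 library other than G9a hairpin 3 replicate 1 (adjusted p up to 0.112).

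MLT2A2, the other LTR of HERVL, rose in CPM with all 4 hairpins but passed with none against the other repeats. In CPM it stood at 21.9, 23.3 and 24.9 in scrambled cells, 27.1, 26.5 and 27.8 with G9a hairpin 2, 28.5, 26.7 and 28.5 with hairpin 3, 27.8, 28.1 and 30.9 with SUV39H1 hairpin 2 and 26.7, 28.9 and 29.2 with hairpin 4. All of these exceeded the scrambled libraries, and MLT2A2 rose by 0.21, 0.25, 0.31 and 0.27 (adjusted p at most 0.000916). In repeat-scaled CPM its group means were 394 ± 21.1 in scrambled cells and between 385 ± 9.45 and 405 ± 12.0 in the knockdowns, and it passed with none of the 4 hairpins. With DMSO, 2 µM and 4 µM it averaged 22.5 ± 0.489, 22.4 ± 0.413 and 22.2 ± 0.555 CPM. MLT2A1 and MLT2A2 together held 97.4 ± 7.30 counts per 100 counts of HERVL-int in scrambled cells, 95.6 ± 3.26 and 95.2 ± 4.25 with G9a hairpins 2 and 3, and 88.7 ± 1.35 and 91.8 ± 1.66 with SUV39H1 hairpins 2 and 4. Neither that ratio nor the difference between MLT2A1 and MLT2A2 was tested.

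**Figure D3:**
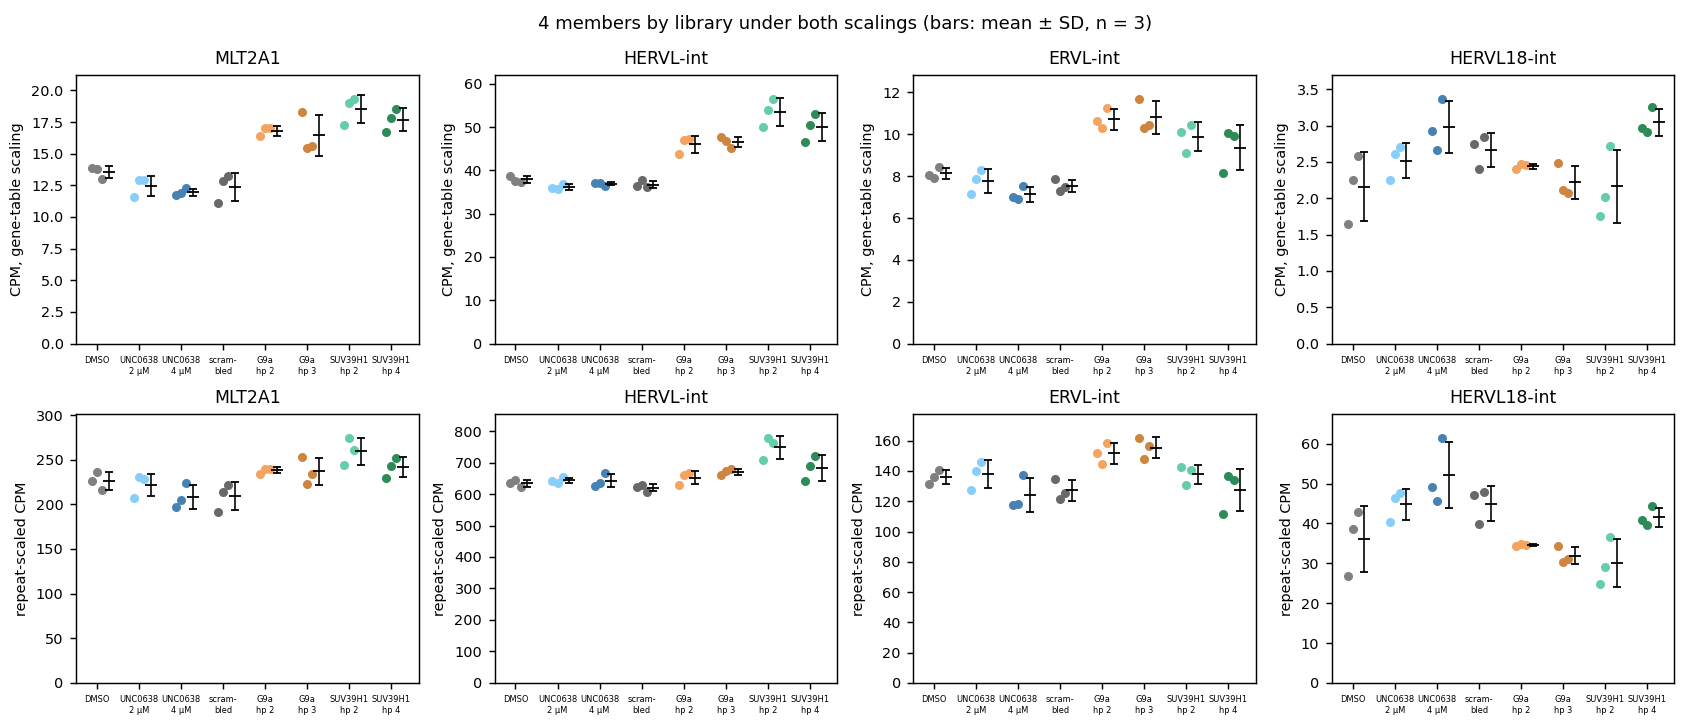
Level of MLT2A1, HERVL-int, ERVL-int and HERVL18-int in each of 24 libraries, in CPM with gene-table scaling (top) and in repeat-scaled CPM (bottom), with the mean ± SD of 3 beside each group. MLT2A1 lies above scrambled cells in all 4 hairpin (hp) groups in both rows, and HERVL18-int lies below them in the lower row with both G9a hairpins and SUV39H1 hairpin 2.

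Knockdown of SUV39H1 also raised most members on the gene-table scale. With hairpin 2, 15 members rose and 0 fell, while 70.3% of all repeats rose, 6.35% fell and 76.6% changed. With hairpin 4, 18 rose and 0 fell, while 74.7% of all repeats rose, 4.84% fell and 79.5% changed. The libraries lay wholly above the scrambled ones in 16 and 20 members, as in 70.6% and 75.9% of all repeats. The members' median log2 difference was 0.38 and 0.34, beside 0.35 and 0.36 over all repeats, so the members moved about as far as the table did. The members that did not pass with hairpin 2 were MLT2B5, MLT2F, HERVL18-int, HERVL32-int, HERVL40-int and HERVL66-int. With hairpin 4 only MLT2B5, MLT2F and HERVL18-int did not pass, at 0.46, 0.10 and 0.20. Scaled by repeat totals, 6 rose and 2 fell with hairpin 2 and 5 rose and 1 fell with hairpin 4, against 50.7% of all repeats with hairpin 2 (31.5% higher, 19.2% lower) and 44.1% with hairpin 4 (26.5% higher, 17.7% lower). That scaling took the median of all repeats from 0.35 to 0.08 and from 0.36 to 0.06.

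**Figure D4:**
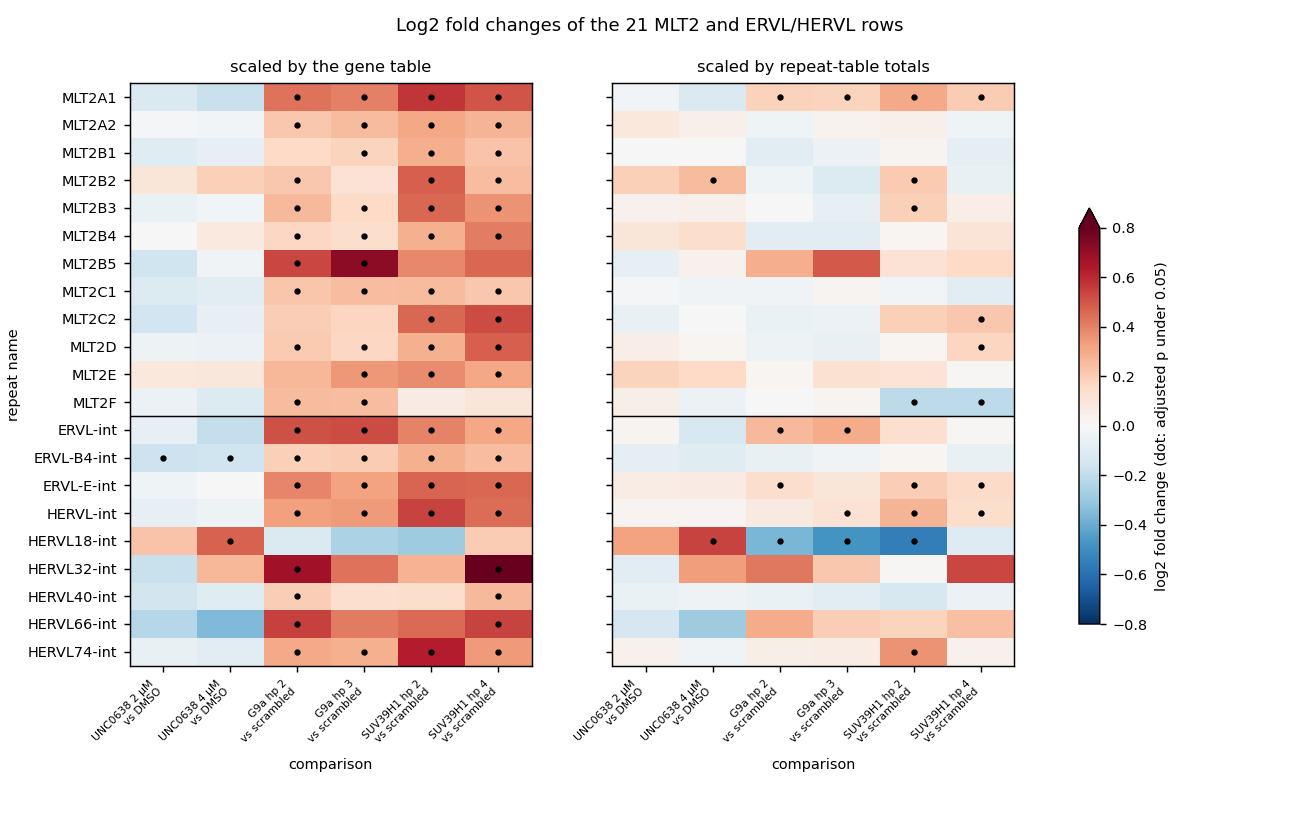
Log2 fold changes of the 21 members in the 6 comparisons with a control, scaled by the gene table (left) and by repeat-table totals (right). Red is higher and blue lower than the control, dots mark an adjusted p under 0.05, and the line parts the 12 MLT2 rows from the 9 internal rows. In the hairpin columns the left panel has 17, 15, 15 and 18 dots, all on higher members, and the right panel has 4, 4, 8 and 6, some on lower members; the colour stops at a log2 fold change of 0.8 in size.

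HERVL74-int had the largest rise with SUV39H1 hairpin 2. It stood at 9.29, 9.85 and 10.2 CPM in scrambled cells, at 14.5, 15.9 and 15.1 with hairpin 2 and at 12.6, 12.4 and 12.2 with hairpin 4. The 3 groups did not overlap, with hairpin 2 on top. It rose by 0.63 ± 0.07 (1.55-fold, adjusted p = 1.89e-08) with hairpin 2 and by 0.34 ± 0.07 with hairpin 4. With G9a hairpins 2 and 3 it rose from the same controls by 0.30 and 0.28, to 11.5, 12.6 and 12.0 CPM and to 13.5, 10.9 and 11.4 CPM (adjusted p = 0.00102 and 0.00203). With repeat totals the SUV39H1 hairpin 2 rise stayed past the threshold, at 0.36 ± 0.07 (adjusted p = 5.45e-05), and none of the others passed.

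ERVL-E-int, the member with the most counts, rose with SUV39H1 hairpins on both scales. It stood at 40.8, 43.1 and 41.3 CPM in scrambled cells, at 56.0, 58.3 and 58.9 with hairpin 2 and at 57.6, 56.4 and 58.4 with hairpin 4. The SUV39H1 libraries lay close to each other and far above the scrambled ones. The rises were 0.47 ± 0.05 and 0.46 ± 0.05 (1.38-fold each, adjusted p = 9.07e-09 and 1.2e-08), and with repeat totals 0.20 ± 0.04 and 0.16 ± 0.04 (adjusted p = 0.000149 and 0.00205), which held whichever library was left out. With G9a hairpin 2 it stood at 51.6, 56.3 and 56.5 CPM and with hairpin 3 at 53.4, 53.8 and 49.4, again above all scrambled libraries. It rose by 0.39 ± 0.05 and 0.32 ± 0.05 on the gene-table scale, and with repeat totals by 0.14 ± 0.04 with hairpin 2 (adjusted p = 0.00706), while hairpin 3 did not pass. In the inhibitor arm it averaged 43.1 ± 0.956 CPM with DMSO, 42.1 ± 0.510 at 2 µM and 43.3 ± 4.04 at 4 µM.

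The fall of ERVL-B4-int with UNC0638 passed on the gene-table scale alone, and not in every fit there. ERVL-B4-int rose with every hairpin in CPM and with none against the other repeats. It stood at 40.9, 43.7 and 43.9 CPM in scrambled cells, 48.7, 48.3 and 50.1 with G9a hairpin 2, 50.8, 48.3 and 48.7 with hairpin 3, 50.5, 52.7 and 53.7 with SUV39H1 hairpin 2 and 49.0, 50.7 and 52.7 with hairpin 4. All knockdown libraries lay above the scrambled ones. The rises were 0.19, 0.20, 0.29 and 0.24 on the log2 scale, each ± 0.04 (adjusted p at most 0.000351). With repeat totals its differences ran from -0.06 to 0.02 and none passed.

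Among the LTRs, MLT2B3 is the second by counts. It stood at 25.5, 25.6 and 24.7 CPM in scrambled cells, at 34.4, 33.3 and 36.5 with SUV39H1 hairpin 2 and at 32.4, 31.9 and 32.7 with hairpin 4. It rose 1.38-fold and 1.28-fold, by 0.46 ± 0.05 and 0.36 ± 0.05 (adjusted p = 1.45e-09 and 1.25e-07). Its G9a libraries lay between, at 30.8, 29.0 and 30.7 CPM with hairpin 2 and 28.5, 28.7 and 27.4 with hairpin 3, above scrambled cells and below every SUV39H1 library. With repeat totals only SUV39H1 hairpin 2 passed, with a rise of 0.19 ± 0.05 (adjusted p = 0.00172). In the inhibitor arm MLT2B3 averaged 27.4 ± 0.619, 26.3 ± 0.631 and 26.9 ± 1.27 CPM.

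MLT2F, the LTR with the most counts, followed another order. It stood at 33.6, 33.3 and 37.9 CPM in scrambled cells, at 41.8, 40.4 and 42.5 with G9a hairpin 2 and at 41.4, 41.2 and 41.5 with hairpin 3. The G9a libraries lay above all scrambled ones, and MLT2F rose by 0.25 ± 0.05 with each hairpin (adjusted p = 8.48e-05 and 0.000148). With SUV39H1 hairpin 2 it stood at 37.7, 34.0 and 37.5 CPM and with hairpin 4 at 36.6, 37.0 and 38.4, overlapping scrambled cells, at log2 differences of 0.06 and 0.10 that did not pass. Without TMM factors MLT2F passed as higher with both, by 0.15 ± 0.05 (adjusted p = 0.00742) and 0.23 ± 0.05 (adjusted p = 0.000158). It did so too without scrambled replicate 3, by 0.12 and 0.16 (adjusted p = 0.0369 and 0.00709), and with hairpin 4 when the replicate number was added as a block, by 0.10 (adjusted p = 0.0461). In repeat-scaled CPM it fell with both, from 577, 553 and 636 in scrambled cells to 532, 490 and 506 with hairpin 2 and 503, 504 and 522 with hairpin 4, by 0.21 ± 0.05 each (adjusted p = 0.00102 and 0.00126). Its direction with SUV39H1 knockdown thus depends on the scaling. With DMSO, 2 µM and 4 µM it averaged 36.9 ± 1.27, 35.8 ± 1.40 and 34.2 ± 0.277 CPM.

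HERVL18-int was the other member that stood apart. It stood at 2.75, 2.40 and 2.85 CPM in scrambled cells, at 2.40, 2.47 and 2.46 with G9a hairpin 2, at 2.48, 2.11 and 2.07 with hairpin 3, at 1.76, 2.01 and 2.72 with SUV39H1 hairpin 2 and at 2.97, 2.91 and 3.26 with hairpin 4. It passed with no hairpin on the gene-table scale. Without SUV39H1 hairpin 2 replicate 3 it was lower with that hairpin, by -0.50 ± 0.16 (adjusted p = 0.00662), as it was without scrambled replicate 2 (-0.37, adjusted p = 0.0473), and without TMM factors it was higher with hairpin 4, by 0.33 (adjusted p = 0.0218). In repeat-scaled CPM it fell from 47.2, 40.0 and 47.8 to 34.4, 34.8 and 34.6 with G9a hairpin 2, to 34.3, 30.4 and 31.1 with hairpin 3 and to 24.8, 29.0 and 36.7 with SUV39H1 hairpin 2. The groups did not overlap, and the falls were by 0.36, 0.48 and 0.55 on the log2 scale (SE 0.14 to 0.15, adjusted p = 0.0482, 0.0139 and 0.00273). With G9a hairpin 2 at most 3 members passed on this scale in any fit that left out 1 library. Without scrambled replicate 3 or G9a hairpin 2 replicate 1 these were ERVL-E-int, MLT2A1 and ERVL-int, so the HERVL18-int fall was lost there. Its other falls are not given with a library left out. LTR18B, an LTR of the same number, rose by 0.61, 0.65, 0.63 and 0.63 with G9a hairpins 2 and 3 and SUV39H1 hairpins 2 and 4 (adjusted p at most 0.000268), and with repeat totals by 0.36, 0.42, 0.36 and 0.33 (adjusted p at most 0.0291). At 4 µM UNC0638 LTR18B differed by -0.29 and did not pass. The difference between LTR18B and HERVL18-int was not tested. LTR18B was picked after its values were seen, and other LTR18 rows are not given here. The list of 14 rows that holds it, described below, had medians of 0.28, 0.20, 0.16 and 0.31 on the gene-table scale, in the same order.

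The members with the fewest counts gave the largest and least certain folds. HERVL32-int had 14, 16 and 18 counts in the scrambled libraries, 24, 24 and 32 with G9a hairpin 2 and 48, 30 and 28 with SUV39H1 hairpin 4. In CPM these were 0.422, 0.315 and 0.442, then 0.577, 0.510 and 0.771, then 0.839, 0.606 and 0.601, with no overlap with scrambled cells. It rose by 0.67 ± 0.26 (adjusted p = 0.0244) and 0.84 ± 0.25 (adjusted p = 0.00311), and with the other hairpin of each gene it did not pass. At a median of 20 counts in a library, counting error alone is 22.4% of its level. The call with G9a hairpin 2 was lost without scrambled replicate 2 or G9a hairpin 2 replicate 3 (adjusted p = 0.134 and 0.144), and with DESeq2 (adjusted p = 0.0826).

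HERVL66-int had 13, 36 and 31 counts in scrambled cells, 38, 39 and 45 with G9a hairpin 2 and 51, 48 and 44 with SUV39H1 hairpin 4. In CPM these were 0.392, 0.709 and 0.761, then 0.913, 0.829 and 1.08, then 0.892, 0.970 and 0.944. Scrambled replicate 1 was far below its group. HERVL66-int rose by 0.55 ± 0.20 and 0.54 ± 0.20 (adjusted p = 0.0175 and 0.0133), but by 0.36 and 0.35 without that library, which did not pass (adjusted p = 0.131 and 0.118). With G9a hairpin 2 it was also lost without G9a hairpin 2 replicate 3 (adjusted p = 0.0892), and with DESeq2 neither passed (adjusted p = 0.0621 and 0.0536).

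MLT2B5, an LTR, had 14, 26 and 22 counts in scrambled cells, 28, 32 and 34 with G9a hairpin 2 and 33, 32 and 38 with hairpin 3. In CPM these were 0.422, 0.512 and 0.540, then 0.673, 0.680 and 0.820, then 0.786, 0.803 and 0.857. All 6 G9a libraries lay above scrambled cells, and the rises were 0.54 ± 0.20 (adjusted p = 0.0322) and 0.71 ± 0.20 (adjusted p = 0.00405). The first was lost without scrambled replicate 1 or 2 or G9a hairpin 2 replicate 3 (adjusted p = 0.0922, 0.0593 and 0.128), and with DESeq2 (adjusted p = 0.107). With repeat totals HERVL32-int, HERVL66-int and MLT2B5 passed with no hairpin.

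MLT2C2 and MLT2D rose most with SUV39H1 hairpin 4 among the LTRs, beside MLT2A1. MLT2C2 stood at 3.14, 3.35 and 3.09 CPM in scrambled cells, at 4.26, 4.64 and 4.35 with SUV39H1 hairpin 2 and at 4.72, 4.59 and 4.46 with hairpin 4. It rose by 0.46 ± 0.10 and 0.52 ± 0.10 (adjusted p = 0.000182 and 1.92e-05), and with repeat totals by 0.22 ± 0.09 with hairpin 4 (adjusted p = 0.0449), a call that was lost without any 1 library other than SUV39H1 hairpin 4 replicate 3. MLT2D stood at 14.3 ± 1.01 CPM in scrambled cells (SD, n = 3), at 16.8, 16.7 and 18.8 with hairpin 2 and at 19.9, 20.1 and 19.9 with hairpin 4, with no overlap between the groups. Its rise with hairpin 4, 0.48 ± 0.06, stayed past the threshold with repeat totals at 0.17 ± 0.05 (adjusted p = 0.00431).

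**Figure D5:**
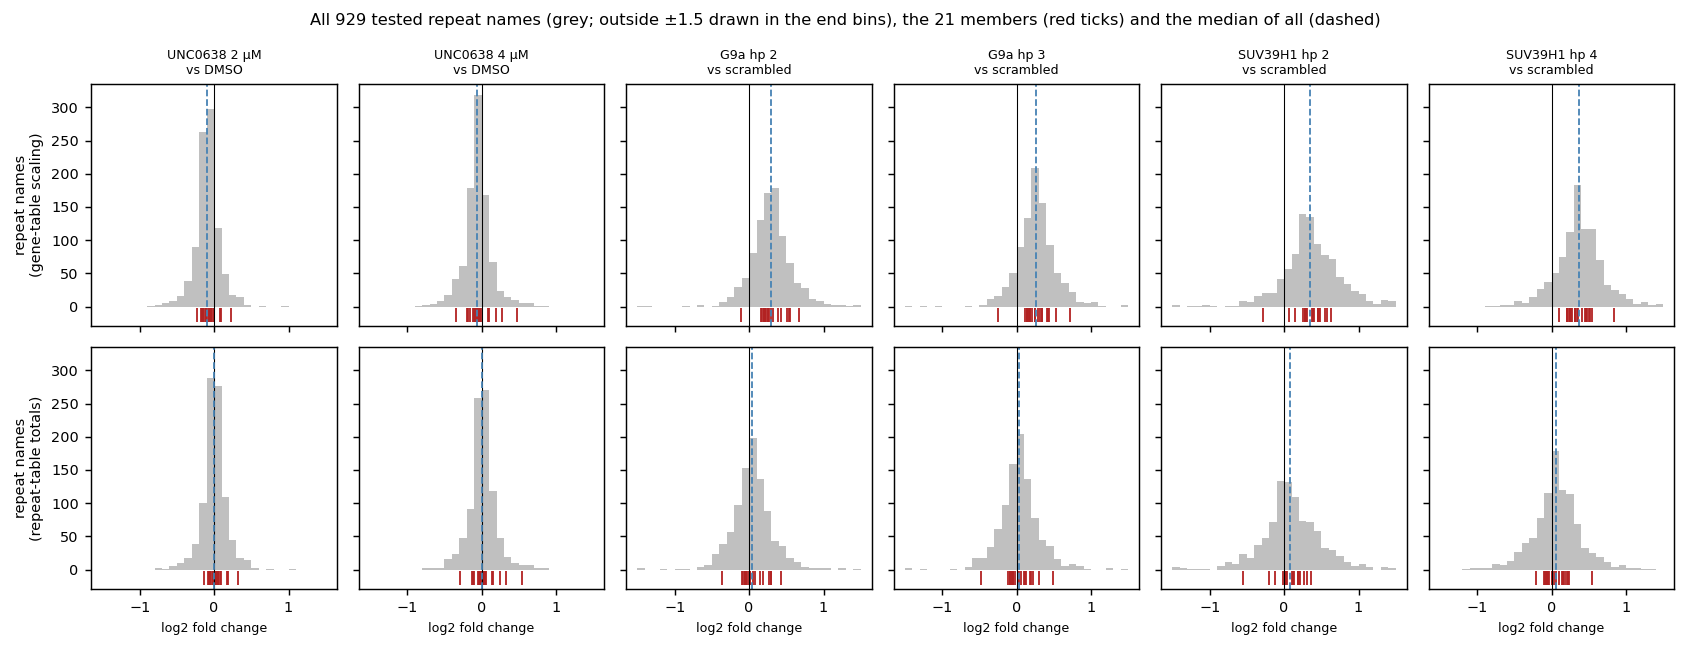
Log2 fold changes of all 929 tested repeat names (grey bars, 0.1 wide) and of the 21 members (red ticks) in the 6 comparisons with a control, scaled by the gene table (top) and by repeat-table totals (bottom), with the median of all names dashed. In the top row the members lie around a median that is shifted to the right in the 4 hairpin (hp) panels, and in the bottom row that median lies at 0.03 to 0.08.

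The SUV39H1 hairpins differed from each other in 4 members, 2 higher and 2 lower with hairpin 4, against 18.5% of all repeats, 9.26% higher and 9.26% lower. HERVL74-int differed by -0.29 ± 0.07 between hairpin 4 and hairpin 2 (adjusted p = 0.00546) and MLT2B2 by -0.23 ± 0.07 (adjusted p = 0.02). HERVL18-int was higher with hairpin 4 by 0.49 ± 0.14 (adjusted p = 0.0166) and MLT2D by 0.19 ± 0.06 (adjusted p = 0.0344). For none of the 4 did the libraries of the hairpins overlap on either scale. Of all 929 repeats, 213 lay wholly higher and 144 wholly lower with hairpin 4 on the gene-table scale, and 150 and 198 with repeat totals. MLT2B2, an LTR, stood at 15.2, 14.3 and 16.2 CPM with hairpin 2 and at 12.5, 12.5 and 14.0 with hairpin 4. With repeat totals the 4 passed in the same direction, and MLT2B3 and HERVL-int passed as lower with hairpin 4 (adjusted p = 0.036 and 0.0197), which makes 2 higher and 4 lower, against 21.5% of all repeats (8.29% higher, 13.2% lower). With 1 library left out, 1 to 3 members passed with gene-table scaling. HERVL74-int passed each time, MLT2B2 was lost without hairpin 2 replicate 1 or 3 or hairpin 4 replicate 1 or 2, MLT2D without replicate 1 or 2 of either hairpin, and HERVL18-int without hairpin 2 replicate 1 or 2 or hairpin 4 replicate 3.

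The next comparison set the G9a knockdown beside the SUV39H1 knockdown, each as the mean of its hairpins. Of the members, 2 were higher and 9 lower with G9a hairpins, against 41.4% of all repeats, 10.1% higher and 31.3% lower. MLT2F was higher with G9a hairpins by 0.17 ± 0.04 (adjusted p = 0.00029) and ERVL-int by 0.16 ± 0.05 (adjusted p = 0.0174). Between G9a and SUV39H1 hairpins MLT2C2 differed by -0.30 ± 0.07 (adjusted p = 0.000528) and MLT2B3 by -0.20 ± 0.03 (adjusted p = 9.95e-06). The other 7 that were lower were MLT2A1, MLT2B2, MLT2B4, MLT2D, ERVL-E-int, HERVL-int and HERVL74-int, at -0.11 to -0.20. For MLT2F, MLT2B3 and MLT2C2 the 6 libraries of 1 knockdown did not overlap the 6 of the other, and for the other 8 they did. Of all 929 repeats, 33 lay wholly higher and 144 wholly lower in the G9a libraries on this scale. With repeat totals 2 members were higher and 7 lower, all in the same direction as before and against 43.5% of all repeats (18.9% higher, 24.5% lower), and MLT2A1 and ERVL-E-int did not pass. Without TMM factors neither MLT2F nor ERVL-int passed (adjusted p = 0.0762 and 0.289), and 0 members were higher and 15 lower with G9a hairpins, against 4.74% and 57.1% of all repeats. The ERVL-int call was also lost without G9a hairpin 3 replicate 1 or SUV39H1 hairpin 4 replicate 1 (adjusted p = 0.0532 and 0.0607).

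Scrambled and DMSO cells, the controls of the 2 arms, did not differ in any member that passed: 0 of 21 with either scaling and with DESeq2, against 8.83% of all repeats with gene-table scaling and 10.1% with repeat totals, with 2 members at an unadjusted p under 0.05. The inhibitor and knockdown responses were therefore compared as differences from their own controls. The 4 µM response was lower than the G9a response in 14 members and higher in 1, against 63.8% of all repeats that differed (59.5% lower, 4.31% higher), and it was lower than the SUV39H1 response in 16 and higher in 1, against 74% (68.4% lower, 5.6% higher). The member that was higher was HERVL18-int in both. With repeat totals 3 members were higher and 2 lower than in the G9a response, against 33.8% of all repeats (16.8% higher, 17% lower), and 1 was higher and 3 lower than in the SUV39H1 response, against 42.8% (18.2% higher, 24.7% lower). Both sets held MLT2A1, whose difference was -0.30 ± 0.09 from the G9a response (adjusted p = 0.00966) and -0.37 ± 0.09 from the SUV39H1 response (adjusted p = 0.00128).

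Relatives of the members in the same table rose with the hairpins on the gene-table scale along with the table as a whole, in which 66.1%, 60.3%, 70.3% and 74.7% of all repeats rose and 3.23%, 3.55%, 6.35% and 4.84% fell with G9a hairpins 2 and 3 and SUV39H1 hairpins 2 and 4. One list held 14 rows named LTR18, LTR32, LTR40, LTR66 or MER74, which share a number with a HERVL row, or MER68, which does not. Of these 9 rose and 0 fell with G9a hairpin 2, 8 and 0 with hairpin 3, 7 and 1 with SUV39H1 hairpin 2, and 10 and 1 with hairpin 4. Their shares that rose lay below those of all repeats with SUV39H1 hairpin 2 and near them with the others, and their median differences were 0.28, 0.20, 0.16 and 0.31. MER68B and LTR40a, both on this list, rose by 0.44 and 0.38 with G9a hairpin 2, and LTR40b fell by 0.32 with SUV39H1 hairpin 2, the smallest p in the list there. Of 44 other ERVL LTR rows 27, 28, 25 and 29 rose and 2, 2, 4 and 3 fell, in the same order, with medians of 0.25, 0.26, 0.35 and 0.40. The MaLR rows, class III relatives that comprise THE1, MST and MLT1, rose in 55, 57, 57 and 63 of 77 tested rows and fell in 3, 3, 2 and 2. With repeat totals 18.7%, 16.7%, 31.5% and 26.5% of all repeats were higher and 16.6%, 16%, 19.2% and 17.7% lower. On that scale the 14 rows had 2, 1, 4 and 3 higher and 3, 3, 3 and 1 lower, the 44 ERVL LTRs 2, 4, 12 and 9 higher and 10, 5, 15 and 14 lower, and the 77 MaLR rows 12, 12, 29 and 24 higher and 12, 11, 7 and 7 lower.

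Genes of the embryonic programme in which HERVL is known to be transcribed had few counts. Of 21 genes of the cleavage stage or known as DUX4 targets, 11 had 0 counts in all 24 libraries, DUX4, DUXA and LEUTX among them, and 6 had 1 to 10 counts in all, such as ZSCAN4 with 1. A count of 0 allows up to 3 counts in a library, which is 0.0558 to 0.0951 CPM of the gene totals here, for counting error only. CCNA1, a cyclin also expressed in myeloid cells, and RFPL2 were the 2 that could be tested. CCNA1 averaged 41.1 ± 1.83 CPM in scrambled cells, 44.7 ± 0.793 and 45.6 ± 0.695 with the G9a hairpins, and 99.0 ± 2.17 and 58.1 ± 0.756 with SUV39H1 hairpins 2 and 4. It rose by 0.12, 0.15, 1.27 and 0.50 (adjusted p = 0.0167, 0.00365, 7.35e-20 and 4.08e-11). CCNA1 also stood apart between the controls, at 65.3 ± 1.46 CPM with DMSO, and neither dose of UNC0638 passed. RFPL2 averaged 0.685 ± 0.0676 CPM in scrambled cells and rose with SUV39H1 hairpin 2, by 0.62 ± 0.22 (adjusted p = 0.015), but passed with no other hairpin.

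Genes that silence such elements moved unevenly. Of 22 on the list, 6 rose and 5 fell with each G9a hairpin, 4 rose and 14 fell with SUV39H1 hairpin 2, and 5 rose and 12 fell with hairpin 4. Over all 20147 genes tested, 22.1% rose and 22.3% fell with G9a hairpin 2, 22.6% and 22.1% with hairpin 3, 34.5% and 32.6% with SUV39H1 hairpin 2, and 31.8% and 29.2% with hairpin 4. Apart from EHMT2 and the SUV39H genes, HDAC2, a histone deacetylase, fell by 0.45 and 0.44 with the G9a hairpins and by 0.41 and 0.66 with SUV39H1 hairpins 2 and 4. CBX5, which encodes the heterochromatin protein HP1 alpha, rose by 0.38 and 0.33 with the G9a hairpins and by 0.30 and 0.22 with the SUV39H1 hairpins, and MORC3 rose by 0.72 and 0.32 with the SUV39H1 hairpins. TRIM28, the corepressor that brings SETDB1 to retroviral sequences, fell by 0.57 and 0.46 with the SUV39H1 hairpins, and EHMT1, which encodes GLP, fell by 0.65 and 0.48. At 4 µM UNC0638 1 of the 22 rose and 5 fell, against 10.2% and 9.73% of all genes, and RCOR1, a partner of the demethylase KDM1A, fell by 0.20. Whether these changes bear on the members was not tested.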

How the data were processed

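RNA of 24 U937 libraries in 8 groups of 3 was analysed, with groups and replicate numbers from the labels. Per the labels the TruSeq RNA v2 kit was used, which marks no strand. Per the submitters' processing notes, the authors used STAR, featureCounts and the hg19 build. Neither their versions nor the handling of multi-mapping reads is given in the sources, and counts of near-identical copies are uncertain. The deposited tables held whole-number counts for 55773 gene names and 992 repeat names. Their deposited other value, a summed length in bases per name, was used for levels per length.

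Library sizes were gene-table totals with TMM factors, or repeat-table totals. Names were kept by filterByExpr (minimum count 10, minimum total 15). A quasi-likelihood model with 8 group means was fitted to all 929 kept repeats (edgeR 4.0.16, limma 3.58.1, R 4.3.3), with 13 contrasts of means and a test over the 8 groups, and called at a Benjamini-Hochberg adjusted p under 0.05 over all 929. Genes were fitted likewise (20147 kept). The common dispersion of the repeats was 0.00285, a coefficient of variation of 5.34%. Levels per library are means ± SD, log2 differences are ± SE, and a log2 difference of a low member depends on edgeR's prior count.

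Members were named freely. Values in every library were given for the 3 MLT2 and 3 internal rows with most counts and for the 3 members with the largest rise and fall in each comparison of 4 µM UNC0638 or a hairpin with its control, and of each list the 2 genes or rows with the smallest p could be named. LTR18B, MLT2D, MLT2B2, LTR40b, HDAC2, CBX5, MORC3, TRIM28, EHMT1 and SUV39H2 were described further after their values were seen. The members and lists were chosen with earlier results of these data known. The B cell list held a further marker, which is left out of its counts and sum and is not reported here. Alternatives were other scalings, DESeq2 1.42.0, no filter, the compared libraries alone, a replicate block and each library left out. Replicates of a group differed by more than counting noise (chi-square per degree of freedom 1.91 to 20.7). On simulated counts, with 24 of 929 repeats changed per fold, 54.2% were called at 1.2-fold and 91.7% at 1.5-fold for 4 µM UNC0638, with 1.19% of calls false, 54.2% and 95.8% for G9a hairpin 2, with 2.35% false, and 25% and 79.2% for SUV39H1 hairpin 4, with 2.67% false. Each simulated repeat had the common dispersion and, unless changed, the same mean in all groups. The changed repeats were drawn once for each comparison, so the shares may differ between comparisons by which repeats were drawn. The false share is taken over the calls of all folds, those at 2-fold and 4-fold included. In the data repeats need not share 1 dispersion, and most rose together with the hairpins, so these shares may not carry over to the calls above.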

Additional observations from a re-analysis of the deposited data

Results flagged for a closer look

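The response to 4 µM UNC0638 (against DMSO) differed from the response to the G9a hairpins (against scrambled cells) in 15 members, and from the response to the SUV39H1 hairpins in 17, by a test of the difference itself (edgeR), beside 63.8% and 74% of all repeats. With repeat totals these counts were 5 and 4, beside 33.8% and 42.8% of all repeats. The members that passed on both scales and had values in every library are given here, as the inhibitor response minus the knockdown response on the log2 scale. Against the G9a response, MLT2A1 differed by -0.597 ± 0.0954 (adjusted p = 7.77e-06), ERVL-int by -0.708 ± 0.109 (adjusted p = 4.66e-06) and HERVL18-int by 0.656 ± 0.188 (adjusted p = 0.00358). With repeat totals these were -0.295, -0.406 and 0.957. Against the SUV39H1 response, MLT2A1 differed by -0.718 ± 0.0952 (adjusted p = 2.66e-07), HERVL-int by -0.535 ± 0.0659 (adjusted p = 9.26e-08), HERVL18-int by 0.514 ± 0.187 (adjusted p = 0.0151) and HERVL74-int by -0.571 ± 0.101 (adjusted p = 1.63e-05). With repeat totals these were -0.368, -0.186, 0.865 and -0.224, and the last was past the threshold by little (adjusted p = 0.0499) and was lost in 11 of 15 fits that left out 1 library. Without TMM factors HERVL18-int against the SUV39H1 response was 0.40 and did not pass (adjusted p = 0.0515). The arms have different controls and handling, which cannot be told apart from the agents.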

How the results depend on the processing

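The scaling decided most calls. With repeat totals the members called were 0 at 2 µM, 4 and 4 with G9a hairpins 2 and 3, 8 and 6 with SUV39H1 hairpins 2 and 4, 5 and 4 for the inhibitor response against the G9a and SUV39H1 responses, and 13 over the 8 groups. With TMM factors of the repeat table added they were 0, 3, 2, 9, 5, 5, 4 and 12. Shares of all repeats are not given for these factors, or for the fits below on compared libraries, with a library left out or with a block. Those counts of members are therefore not set against the whole table. Fitted on the compared libraries alone, 0 members passed at 2 µM and 0 at 4 µM. With repeat totals the MLT2 sum was 103.4% and 101.6% of DMSO at 2 µM and 4 µM, and 99.15%, 99.47%, 103.0% and 99.84% of scrambled cells with the 4 hairpins in the same order, and the internal sum was 100.3%, 99.59%, 103.6%, 103.8%, 110.4% and 104.4%. Without TMM factors the MLT2 sum with SUV39H1 hairpins 2 and 4 was 132.2% and 134.9%, and the internal sum 141.7% and 141.1%.

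Some members were higher than scrambled cells with gene-table scaling and lower with repeat totals, and passed the test on at least 1 of these scales. With G9a hairpin 2 these were MLT2C1 (-0.0273), MLT2B4 (-0.08413), ERVL-B4-int (-0.05812), MLT2A2 (-0.03649), MLT2B2 (-0.03562), MLT2D (-0.04239) and HERVL40-int (-0.05318). With G9a hairpin 3 they were MLT2B3 (-0.06626), MLT2B4 (-0.08523), ERVL-B4-int (-0.02543), MLT2B1 (-0.04858) and MLT2D (-0.06037). With SUV39H1 hairpin 2 they were MLT2F (-0.2069) and MLT2C1 (-0.01949). With SUV39H1 hairpin 4 they were MLT2F (-0.2066), MLT2C1 (-0.09104), ERVL-B4-int (-0.0601), MLT2A2 (-0.03463), MLT2B2 (-0.05844), MLT2B1 (-0.07534) and HERVL40-int (-0.04621). The sign also changed, with no call on either scale, for MLT2B1 and MLT2C2 with G9a hairpin 2, MLT2B2, MLT2C2 and HERVL40-int with G9a hairpin 3, HERVL40-int with SUV39H1 hairpin 2 and HERVL18-int with SUV39H1 hairpin 4.

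With TMM factors of the repeat table as well, the members chosen in the same way with G9a hairpin 2 were MLT2F (-0.02536), MLT2B3 (-0.02005), MLT2C1 (-0.05234), MLT2B4 (-0.1097), ERVL-B4-int (-0.08359), MLT2A2 (-0.06176), MLT2B2 (-0.06102), MLT2D (-0.0676) and HERVL40-int (-0.0782). With G9a hairpin 3 they were MLT2B3 (-0.08424), MLT2B4 (-0.1033), ERVL-B4-int (-0.04362), MLT2B1 (-0.06607) and MLT2D (-0.07803). With SUV39H1 hairpin 2 they were MLT2F (-0.2484), MLT2C1 (-0.06046), MLT2B4 (-0.02836), ERVL-B4-int (-0.02474), MLT2A2 (-0.003498), MLT2B1 (-0.02069), MLT2D (-0.02583) and HERVL40-int (-0.1686). With SUV39H1 hairpin 4 they were MLT2E (-0.027), MLT2F (-0.2429), MLT2C1 (-0.1268), ERVL-B4-int (-0.09626), MLT2A2 (-0.07062), MLT2B2 (-0.09367), MLT2B1 (-0.1107), ERVL-int (-0.02777) and HERVL40-int (-0.08193). By construction, dividing by repeat totals removes the shift that all repeats share.

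With each library left out in turn, the members called with gene-table scaling ranged from 0 to 1 at 2 µM, 0 to 2 at 4 µM, 12 to 18 and 12 to 16 with G9a hairpins 2 and 3, 15 to 17 and 17 to 19 with SUV39H1 hairpins 2 and 4, and 1 to 3 between the SUV39H1 hairpins. The same with repeat totals, where leaving out libraries was added after seeing the data, gave 0 to 0, 0 to 3, 2 to 3, 1 to 3, 7 to 9, 4 to 6 and 2 to 5. With DESeq2 10 of the 138 values to which it gave an adjusted p lost their call, and of 146 values size factors by relative log expression lost 3 and no filter 0, and none of these changed direction.

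Replicate numbers paired the libraries weakly and in part. Same-numbered libraries deviated together, with every correlation over 0.1, only for SUV39H1 hairpin 4 and scrambled cells in the repeats (0.131, 0.292 and 0.218) and not in the genes. In the repeats each library of G9a hairpins 2 and 3 also went best with its own number. Those correlations were 0.0746 to 0.109 and 0.0522 to 0.0943, and other pairs reached 0.034 and 0.0333. In the genes this held for 4 µM UNC0638 and DMSO alone. With the replicate number as a block, 18 and 15 members were called with G9a hairpins 2 and 3 and 16 and 19 with SUV39H1 hairpins 2 and 4, and no call was lost.

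Depth limits the members with few counts, HERVL32-int, MLT2B5 and HERVL66-int, whose counting error is 22.4%, 19.6% and 17.3% at their median counts, against 2.17% for ERVL-E-int.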
